A study of Rattus norvegicus with 20 samples.

Results

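The genes described here are 31 genes of the oligodendrocyte lineage and of myelin, listed by symbol and read from 1 probe set each, the one with the highest mean over all 20 arrays. They fall into 18 mature myelin genes, 2 genes of newly formed oligodendrocytes (Enpp6 and Bcas1), 7 transcription factors and 4 precursor genes. Of the 31 genes, 28 had a probe set of their own among the 14217 genes named on the array. No probe set was matched to Gpr17 or Sox8, and the probe sets annotated to Tf are shared with another gene and were not used. Olig2 had only dim probe sets and was left out of the test, so 27 genes were tested among 10746.

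The arrays measured RNA from the shell of the nucleus accumbens of alcohol-preferring (P) rats, a line selectively bred for high voluntary ethanol drinking. As adolescents, 10 rats could drink 15 and 30% ethanol (the ethanol group), and 10 rats of the same line drank water alone (the water group). Every rat contributed its own array, and animal numbers do not recur between the groups, so nothing pairs the animals. The comparison asks which transcripts differ after drinking in adolescence.

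Oligodendrocytes are the glial cells that wrap axons of the central nervous system in myelin. They arise from dividing precursors, which carry the PDGF receptor alpha and the NG2 proteoglycan, and pass through a short newly formed stage before they make compact myelin. Myelination is still under way in the adolescent forebrain, and bundles of myelinated axons run through and beside the ventral striatum. In RNA from a piece of tissue, fewer cells of a type and less RNA per cell cannot be told apart.

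Values are log2 expression values, and array medians lay between 7.93 and 7.98. The tissue carried the defining markers of striatal projection neurons. The dopamine receptors Drd1 and Drd2 were at 13.49 and 11.31 in ethanol and at 13.20 and 11.04 in water, and 14 of 15 such medium spiny neuron markers were tested. The 4 measured choroid plexus markers had means below 6.65, the limit for a dim probe set here. Ttr came closest, at 6.645 in water (SD 0.57, against 0.13 in ethanol), so single water animals can lie above the limit. Of 7 cortical excitatory neuron markers, Slc17a7, Neurod6 and Tbr1 were below that limit, while Nptx1 (10.85 in ethanol and 10.90 in water), Neurod2 (8.05 and 7.96) and Fezf2 (6.98 and 6.91) were above it and were tested. Neurod6 had an SD of 0.75 in ethanol and 0.60 in water, and Slc17a7 of 0.47 and 0.39. Their means do not speak for every animal. The mean deviation of the 3 tested cortical markers was highest in ethanol animal 3 (0.51), followed by water animal 19 (0.32). For the medium spiny neuron markers, water animals 17, 19 and 20 stood apart from all others. Their mean over the medium spiny neuron markers lay 0.79, 0.58 and 1.10 below the markers' mean over all arrays (deviations of -0.79, -0.58 and -1.10), while ethanol animals ranged from -0.33 to 0.38 and the 7 other water animals from -0.03 to 0.36. The main results below are therefore also given without these 3 animals.

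All 27 tested genes had a lower mean in ethanol than in water, but by small amounts, and none passed the test. The differences, ethanol minus water, ran from -0.25 (Mag) to -0.04 (Plekhb1) with a median of -0.15, against a median of 0.00016 over all 10746 genes tested. Of the 27 genes 0 rose and 0 fell (limma, Benjamini-Hochberg over all probe sets, threshold 0.05, lowest adjusted p = 0.307), where 0.0931% of all genes passed in either direction, 0.00931% lower and 0.0838% higher. At an unadjusted p under 0.05, 3 of the 27 (Sox10, Cspg4 and Lhfpl3) were lower in ethanol and 0 were higher, where 4.77% of all genes were lower and 5.24% higher at that level. The mean was lower in ethanol for 49.9% of all genes. Many of the 27 genes vary together from animal to animal, so their common sign is not a count of separate observations.

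The common sign did not hold when the 3 water animals were left out. Without water animals 17, 19 and 20, 14 of the 27 genes were lower and 13 higher in ethanol, with a median difference of -0.0036, a range from -0.12 to 0.09 and 0 genes past the threshold, where 0.13% of all genes passed. In that setting 44.5% of all genes were lower in ethanol. The 3 animals were singled out for low neuronal markers and have high myelin values, so leaving them out lowers the water mean. Ethanol animal 8 was kept, with the highest mean mature myelin deviation of all 20 animals (0.53) and the lowest neuronal deviation in ethanol (-0.33). Leaving out ethanol animal 8 alone gave a median difference of -0.22. Leaving it out together with the 3 water animals was not run.

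**Figure D1:**
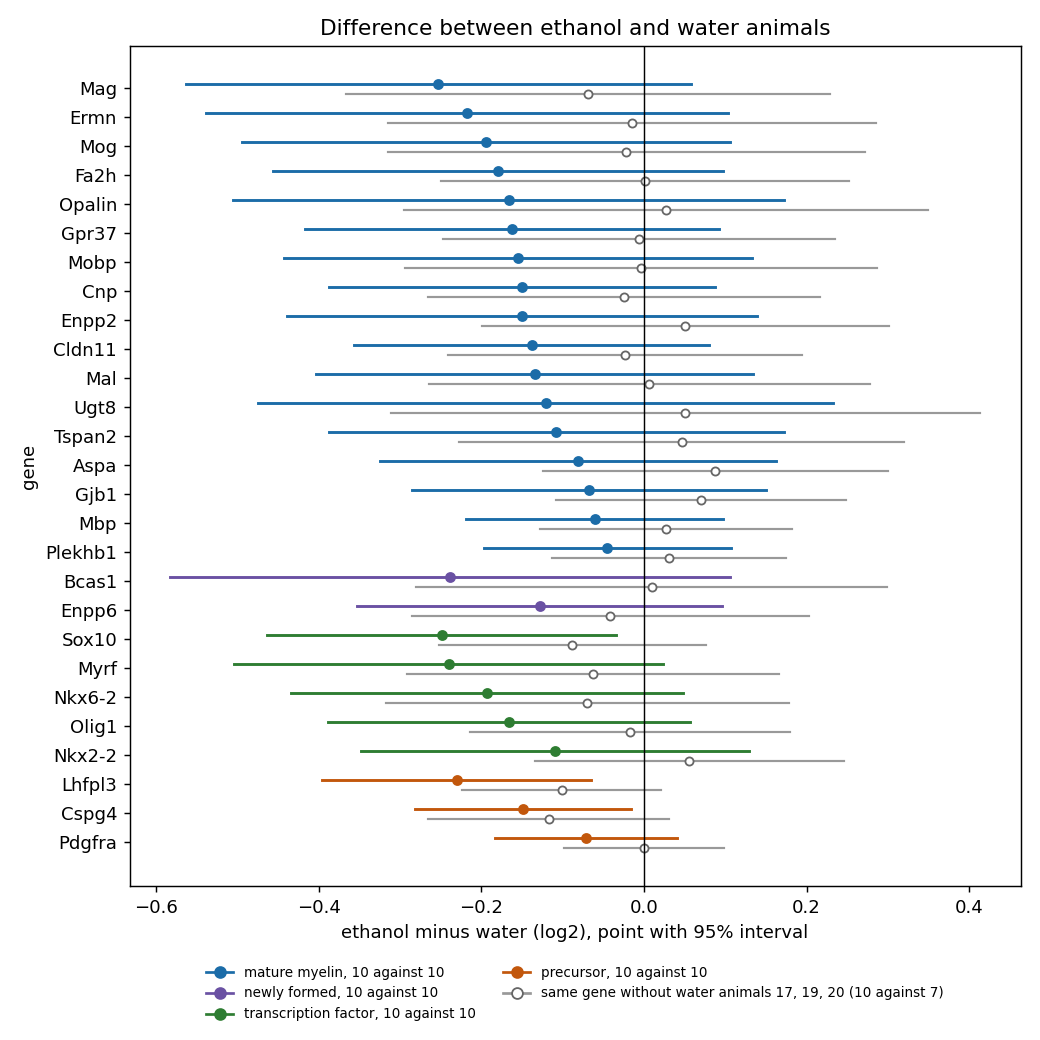
Difference in log2 level between ethanol and water for each of the 27 tested genes, with the 95% interval of limma. Filled points use all 20 arrays and are all below 0; open points leave out water animals 17, 19 and 20 and lie between -0.12 and 0.09.

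The animals differed far more than the groups. Water animal 17 was above every ethanol animal for 15 of the 27 genes, water animal 20 for 11 and water animal 19 for 5. High values were not limited to water. Ethanol animal 8 was the highest of all 20 animals for 9 genes and among the 3 highest for 22. At the other end, water animal 14 was below every ethanol animal for 11 genes and among the 3 lowest of 20 for 22, and ethanol animal 5 was among the 3 lowest for 18. The groups overlapped for each of the 27 genes, and 0.0651% of all genes had groups that did not overlap.

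**Figure D2:**
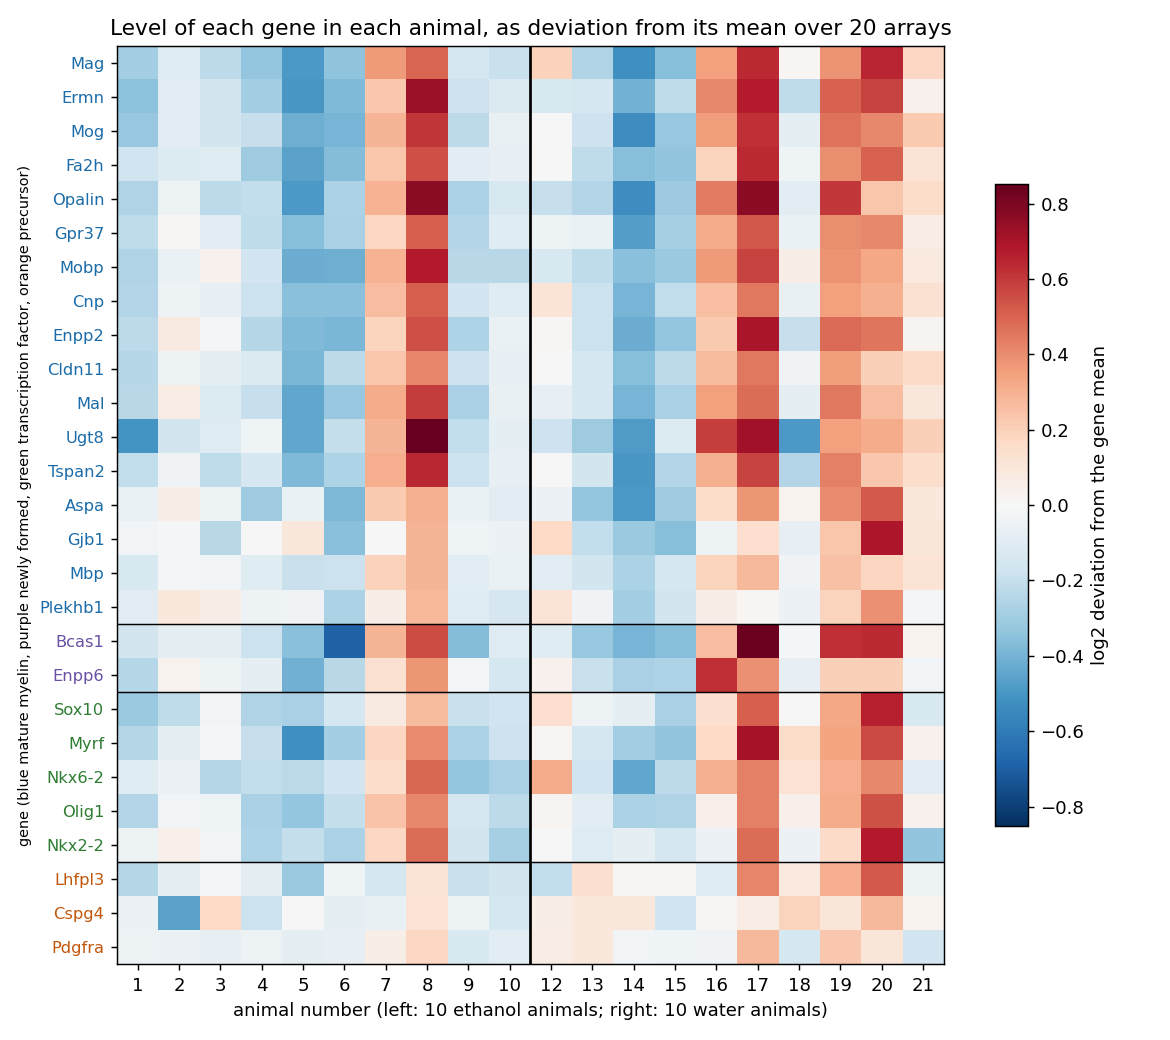
Each cell shows the log2 level of 1 gene in 1 animal as its deviation from that gene's mean over the 20 arrays, with ethanol animals left of the line and water animals right. Ethanol animals 7 and 8 and water animals 16, 17, 19 and 20 are red over most mature myelin genes, ethanol animals 5 and 6 and water animals 14 and 15 are blue, and the 3 precursor genes at the bottom are paler.

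Mature myelin genes encode the structural proteins, adhesion molecules and lipid enzymes of the sheath, and 17 of the 18 were tested. All 17 had a lower mean in ethanol (median difference -0.15) and 0 passed. Mag, an adhesion glycoprotein of the myelin membrane next to the axon, was lowest at 10.45, had a median of 10.73 and was highest at 11.43 in ethanol. In water the Mag values were 10.42, 11.13 and 11.59. The lowest animals of both groups lie side by side, while the water median is higher. Mag differed by -0.25 (95% interval -0.56 to 0.06, adjusted p = 0.488), and by -0.07 without the 3 water animals.

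Mog, a glycoprotein of the outermost myelin layer, spanned 11.10 to 12.12 in ethanol with a median of 11.34. It spanned 10.99 to 12.14 in water with a median of 11.63, so the water range encloses the ethanol range. Mog differed by -0.19 (interval -0.49 to 0.11, adjusted p = 0.58), and by -0.02 without the 3 animals. Ermn, a cytoskeletal protein of late oligodendrocyte differentiation, spanned 10.21 to 11.44 (median 10.54) in ethanol and 10.31 to 11.37 (median 10.66) in water. Here the ethanol range encloses the water range. Ermn differed by -0.22 (interval -0.54 to 0.10, adjusted p = 0.559), and by -0.01 without the 3 animals.

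Fa2h, the enzyme that makes 2-hydroxylated fatty acids for myelin galactolipids, spanned 9.55 to 10.56 (median 9.90) in ethanol and 9.64 to 10.65 (median 10.07) in water. It differed by -0.18 (interval -0.46 to 0.10, adjusted p = 0.579), and by 0.0018 without the 3 animals. Its partner in the same lipid pathway, the galactosyltransferase Ugt8, differed by -0.12 (adjusted p = 0.781). These lipid enzymes had the same sign as the structural genes in the full set. Without the 3 animals Ugt8 differed by 0.05, and several of the structural genes below also had a higher mean in ethanol.

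Among the other structural genes, the major compact myelin protein gene Mbp differed by -0.06 and Mobp, a further compact myelin protein, by -0.15. Cnp, the phosphodiesterase of non-compacted myelin, differed by -0.15, Cldn11, the tight junction protein of the sheath, by -0.14, and Mal, a membrane proteolipid, by -0.13. The tetraspanin Tspan2 differed by -0.11 and the transmembrane protein Opalin by -0.17. The connexin Gjb1, which couples myelin layers, differed by -0.07. These 8 genes had adjusted p-values between 0.587 and 0.806. Without the 3 water animals Mobp differed by -0.0036, Cnp by -0.02 and Cldn11 by -0.02, and the other 5 had a higher mean in ethanol, by 0.0069 to 0.07. The remaining mature genes were Aspa, which splits N-acetylaspartate (-0.08), the lysophospholipase D Enpp2 (-0.15), the orphan receptor Gpr37 (-0.16) and Plekhb1 (-0.04), with adjusted p-values from 0.584 to 0.816. Without the 3 animals Gpr37 differed by -0.0055, and Aspa, Enpp2 and Plekhb1 by 0.09, 0.05 and 0.03.

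Several genes had more than 1 probe set. The further Mbp probe sets differed by -0.10 and 0.11, so they do not share a sign (adjusted p = 0.753 and 0.854). Those of Mobp differed by -0.32 and -0.10, that of Cnp by -0.21, those of Ermn by -0.16 and -0.13, that of Tspan2 by -0.08 and that of Cldn11 by -0.02, all of the same sign as the probe set that stands for the gene. None of these passed (adjusted p from 0.433 to 0.972). The second Ugt8 probe set was dim, with a mean of 4.35, and was not tested.

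The genes of newly formed oligodendrocytes were in the same range. Bcas1, which marks cells that are beginning to myelinate, spanned 11.23 to 12.48 (median 11.79) in ethanol and 11.53 to 12.76 (median 11.93) in water. It differed by -0.24 (interval -0.58 to 0.11, adjusted p = 0.551), and by 0.0097 without water animals 17, 19 and 20. These 3 animals held the highest Bcas1 values of all, at 12.76, 12.55 and 12.56. Enpp6, a choline phosphodiesterase of the same stage, spanned 7.31 to 8.10 (median 7.66) in ethanol and 7.45 to 8.34 (median 7.73) in water. Enpp6 differed by -0.13 (interval -0.35 to 0.10, adjusted p = 0.625), and by -0.04 without the 3 animals.

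Transcription factors set the identity of the lineage, and 5 of the 7 were tested, of which 0 passed. Sox10, an SRY-box factor needed for terminal differentiation, spanned 8.43 to 9.01 (median 8.56) in ethanol and 8.47 to 9.41 (median 8.81) in water. Of the 10 ethanol animals 9 were below the water mean. Sox10 differed by -0.25 (interval -0.46 to -0.03, unadjusted p = 0.0249, adjusted p = 0.365), and by -0.09 without the 3 water animals. Water animals 17, 19 and 20 had Sox10 values of 9.25, 9.07 and 9.41, each above the highest ethanol animal.

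Myrf, the factor that switches on myelin genes, spanned 8.99 to 9.92 (median 9.33) in ethanol and 9.18 to 10.22 (median 9.61) in water. It differed by -0.24 (interval -0.50 to 0.02, adjusted p = 0.45), and by -0.06 without the 3 animals. The homeodomain factor Nkx6-2 spanned 7.93 to 8.76 (median 8.08) against 7.82 to 8.70 (median 8.48). Its difference was -0.19 (interval -0.43 to 0.05, adjusted p = 0.496), and -0.07 without the 3 animals. Olig1, a basic helix-loop-helix factor of the lineage, spanned 11.80 to 12.54 (median 11.96) against 11.86 to 12.68 (median 12.17). Olig1 differed by -0.17 (interval -0.39 to 0.06, adjusted p = 0.524), and by -0.02 without the 3 animals. Nkx2-2, a homeodomain factor of early differentiation, differed by -0.11 (adjusted p = 0.695). Olig2, the closest relative of Olig1, was dim on both probe sets, with means of 5.46 and 5.39, so its level could not be followed here.

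**Figure D3:**
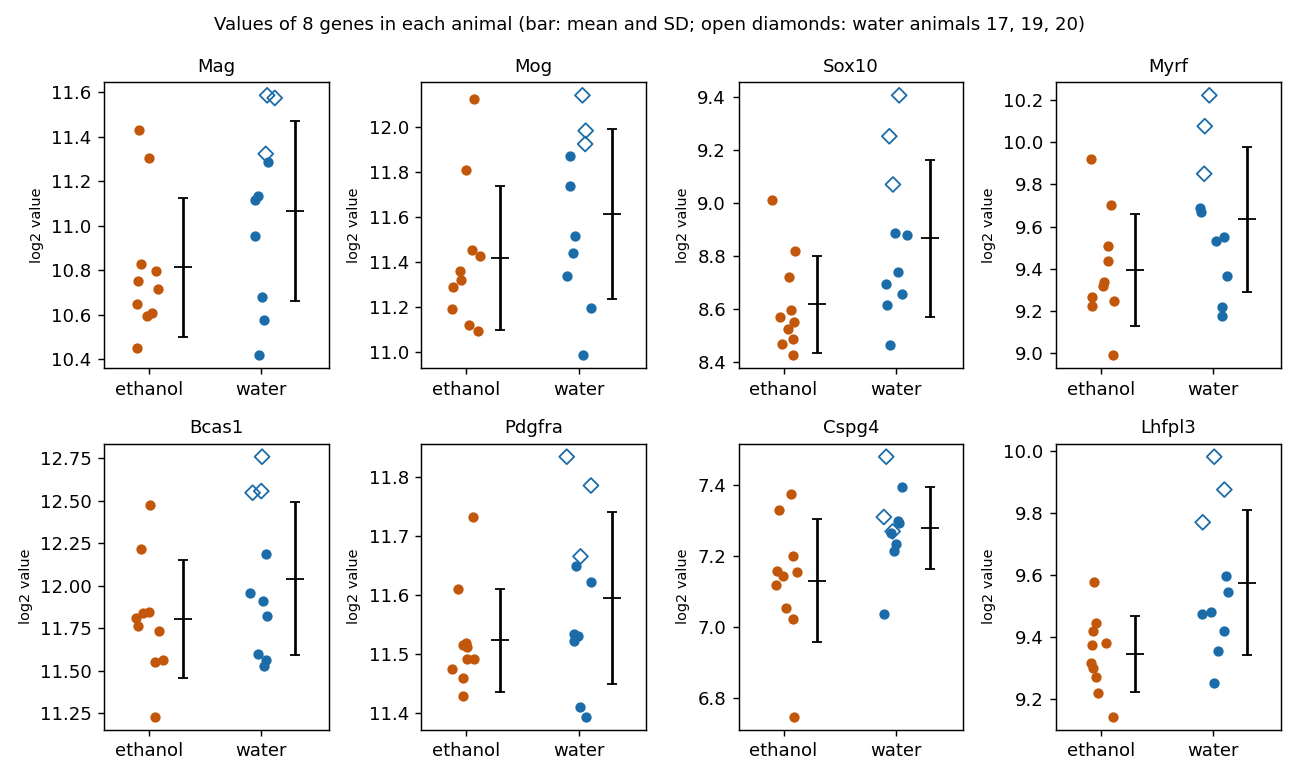
Log2 values of 8 genes in each of the 20 animals, with the mean and SD of each group (n = 10 each) and water animals 17, 19 and 20 as open diamonds. The diamonds are the highest water values for Mag, Mog, Sox10, Myrf, Bcas1, Pdgfra and Lhfpl3, and the ethanol and water points overlap in every panel.

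Myrf acts by binding DNA near myelin genes, so the sequence just upstream of the gene starts was read from RefSeq (build GRCr8). A window was held for 23 of the 31 genes (24 windows, 2 of them for Mbp), and the 250 bases before each start were searched on both strands. The Myrf letters CTGGCAC or CTGGTAC stood in 6 of the 24 windows, those of Cldn11, Cnp, Mal, Mag, Opalin and Olig2, and in 5.48% of the 33469 windows of all genes. The Sox letters ACAAAG or ACAATG stood in 7 windows (25.3% of all windows), and the Olig letters CAGATG or CAGCTG in 6 (24.3% of all windows). A match of so few letters is a description and not a site of binding. The 4 mature genes of highest mean with a Myrf match are shown along the gene's strand, with matches to any of these letters in capitals. They lie at chr2:114149540-114149789 (minus strand), chr10:86011254-86011503 (plus strand), chr3:135341424-135341673 (minus strand) and chr1:95291045-95291294 (minus strand).
Cldn11 promoter: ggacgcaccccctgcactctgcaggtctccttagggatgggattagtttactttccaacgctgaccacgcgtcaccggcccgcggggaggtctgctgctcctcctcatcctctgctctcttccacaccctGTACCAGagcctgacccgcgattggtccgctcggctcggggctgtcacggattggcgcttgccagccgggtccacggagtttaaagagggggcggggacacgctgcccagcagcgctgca
Cnp promoter: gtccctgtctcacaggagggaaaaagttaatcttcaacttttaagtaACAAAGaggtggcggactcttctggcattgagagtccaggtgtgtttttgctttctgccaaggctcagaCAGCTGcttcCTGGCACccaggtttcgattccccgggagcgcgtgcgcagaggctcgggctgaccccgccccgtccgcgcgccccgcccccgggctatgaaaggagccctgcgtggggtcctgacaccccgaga
Mal promoter: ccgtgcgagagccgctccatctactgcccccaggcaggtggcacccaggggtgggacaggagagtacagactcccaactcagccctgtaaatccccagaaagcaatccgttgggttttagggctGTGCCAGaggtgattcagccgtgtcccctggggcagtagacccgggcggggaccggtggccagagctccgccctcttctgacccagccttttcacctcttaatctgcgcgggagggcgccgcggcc
Mag promoter: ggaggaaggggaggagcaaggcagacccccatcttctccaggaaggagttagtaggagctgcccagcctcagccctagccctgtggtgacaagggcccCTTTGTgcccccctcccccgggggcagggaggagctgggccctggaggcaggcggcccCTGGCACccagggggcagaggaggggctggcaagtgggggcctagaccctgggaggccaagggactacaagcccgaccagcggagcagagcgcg
The Myrf letters begin 120 bases before the start in Cldn11, 124 in Cnp, 126 in Mal and 94 in Mag. Cnp also holds ACAAAG and CAGCTG, and Mag holds ACAAAG on the opposite strand.

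Precursor genes mark the dividing cells of the lineage, and 3 of the 4 were tested, of which 0 passed. Lhfpl3, a tetraspan membrane protein of precursors, spanned 9.14 to 9.58 (median 9.35) in ethanol and 9.25 to 9.98 (median 9.51) in water. Of the 10 ethanol animals 9 were below the water mean. Lhfpl3 had the smallest p of the 27 genes (difference -0.23, interval -0.40 to -0.06, unadjusted p = 0.00863, adjusted p = 0.307), and differed by -0.10 without the 3 water animals (interval -0.22 to 0.02).

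Cspg4, the NG2 proteoglycan, spanned 6.75 to 7.38 (median 7.15) in ethanol and 7.04 to 7.48 (median 7.28) in water. It differed by -0.15 (interval -0.28 to -0.02, unadjusted p = 0.0305, adjusted p = 0.381). Leaving out the 3 water animals changed that difference least among the genes above, to -0.12 (interval -0.27 to 0.03). Pdgfra, the PDGF receptor alpha that drives precursor division, spanned 11.43 to 11.73 (median 11.50) in ethanol and 11.39 to 11.84 (median 11.58) in water. It differed by -0.07 (interval -0.18 to 0.04, adjusted p = 0.584), and by 0.00022 without the 3 animals.

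Precursor genes were set against mature genes within each animal, as the mean deviation of the 3 precursor genes from their means over all arrays minus that of the 17 mature genes. This value has no test, since the genes were chosen with results known. It averaged -0.01 ± 0.21 (SD, n = 10) in ethanol and 0.01 ± 0.25 (SD, n = 10) in water, and its difference, -0.01, is smaller than the spread in either group. With the 3' minus 5' value of the control probe sets, a measure of RNA quality, as a covariate, the difference was 0.11, of the opposite sign. Its range was -0.40 to 0.25 in ethanol and -0.32 to 0.44 in water. The lowest value was that of ethanol animal 8 and the highest that of water animal 14, the animals with the highest and lowest mature myelin deviations of all 20 (0.53 and -0.42). Precursor deviations ran only from -0.19 to 0.30, with an SD of 0.10 in ethanol and 0.14 in water, against 0.27 and 0.32 for the mature genes. Without the 3 water animals the difference was -0.09.

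**Figure D4:**
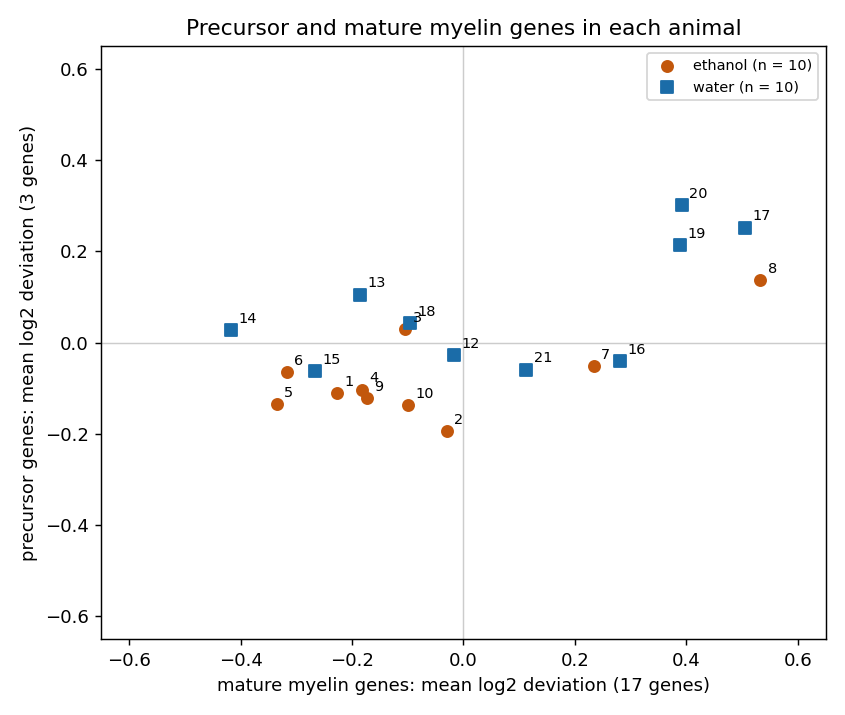
Mean log2 deviation of the 3 precursor genes against that of the 17 mature myelin genes, 1 point per animal labelled with its number. Animals spread from -0.42 to 0.53 along the mature axis but only from -0.19 to 0.30 along the precursor axis, and water animals 17, 19 and 20 are the highest on the precursor axis.

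Water animals spread more than ethanol animals. The SD was larger in water for 24 of the 27 genes, and for 81.2% of all genes, so this was close to the share over the whole array. The median ratio of the SDs, water over ethanol, was 1.24 for the 27 genes and 1.46 for all genes. Lhfpl3 had the highest ratio, 1.90 (SD 0.23 in water and 0.12 in ethanol), and Cspg4 the lowest, 0.67. Without the 3 water animals the SD was larger in water for 8 of the 27 genes and for 62.2% of all genes.

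Within each group, pairs of mature genes varied together. Over 14 relations (7 pairs of genes in 2 groups, permutation tests with Benjamini-Hochberg adjustment), Mag and Mog had r = 0.97 in ethanol (p = 8e-05, adjusted p = 0.000373; rho = 0.88, p = 0.00185, adjusted p = 0.00518; n = 10). In water they had r = 0.96 (p = 2e-05, adjusted p = 0.00028; rho = 0.95, p = 9e-05, adjusted p = 0.00105; n = 10). Leaving out the 2 animals farthest from the median of Mag gave r = 0.81 and 0.91, and in the 7 water animals other than 17, 19 and 20 r was 0.95 (permutation p = 0.00076). Mbp and Mag had r = 0.98 in ethanol (p = 7e-05, adjusted p = 0.000373; rho = 0.94, p = 0.00015, adjusted p = 0.00105), and 0.85 without the 2 farthest animals. In water that pair had r = 0.92 (p = 0.00021, adjusted p = 0.000672; rho = 0.88, p = 0.00185, adjusted p = 0.00518), 0.86 without the 2 farthest and 0.88 in those 7 (permutation p = 0.00805). These relations hold within both groups and without the extreme animals.

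The transcription factors Sox10 and Myrf had r = 0.90 in ethanol (p = 0.00071, adjusted p = 0.00142; rho = 0.68, p = 0.0349, adjusted p = 0.0542), and r = 0.58 without ethanol animals 7 and 8. In water they had r = 0.91 (p = 0.00024, adjusted p = 0.000672; rho = 0.85, p = 0.00298, adjusted p = 0.00612), 0.83 without the 2 farthest animals and 0.72 in the 7 water animals other than 17, 19 and 20 (permutation p = 0.0757).

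Of the precursor genes, Pdgfra and Cspg4 were the pair examined. Since Cspg4 was near the dim limit (mean 7.20), a low r can also reflect noise in its values, which was not tested. Pdgfra and Cspg4 had r = 0.29 in ethanol (p = 0.375, adjusted p = 0.404; rho = 0.04, p = 0.918, adjusted p = 0.918) and r = 0.17 in water (p = 0.643, adjusted p = 0.643; rho = 0.39, p = 0.264, adjusted p = 0.285). Without the 2 farthest animals r was -0.29 in ethanol and 0.23 in water. Mag and Pdgfra had r = 0.84 in ethanol (p = 0.00909, adjusted p = 0.0141; rho = 0.42, p = 0.235, adjusted p = 0.274), which rests on ethanol animals 7 and 8: without them r was -0.20. In water r was 0.49 (p = 0.151, adjusted p = 0.176; rho = 0.59, p = 0.0785, adjusted p = 0.11), 0.48 without the 2 farthest animals, and -0.22 without animals 17, 19 and 20. Whether correlations of mature and precursor pairs differ was not tested.

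Levels of Mag and Pdgfra were set against a neuronal marker. Mag and Rgs9, a regulator of G-protein signalling in striatal projection neurons, had r = -0.89 in ethanol (p = 0.00031, adjusted p = 0.000723; rho = -0.85, p = 0.00306, adjusted p = 0.00612), and -0.67 without ethanol animals 7 and 8. In water they had r = -0.67 (p = 0.0342, adjusted p = 0.0435; rho = -0.73, p = 0.0199, adjusted p = 0.0348) and -0.64 without the 2 farthest animals. In the 7 water animals other than 17, 19 and 20 r was -0.18 (permutation p = 0.692). Pdgfra and Rgs9 had r = -0.78 in water (p = 0.00785, adjusted p = 0.0137; rho = -0.92, p = 0.00054, adjusted p = 0.00252), -0.81 without the 2 farthest animals and -0.87 in those 7 (permutation p = 0.017). In ethanol they had r = -0.81 (p = 0.0106, adjusted p = 0.0149; rho = -0.42, p = 0.23, adjusted p = 0.274), which rests on animals 7 and 8: without them r was 0.01.

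Medium spiny neuron markers were low in the 3 water animals, which were singled out by these same markers. All 14 medium spiny neuron markers tested had a higher mean in ethanol (median difference 0.28, 0 past the threshold). Over all genes, 49.9% had a lower mean in ethanol and 0.0931% passed in either direction. Without animals 17, 19 and 20 the median difference was -0.03, a drop that follows from how these animals were chosen. Rgs9 differed by 0.35, Drd1 by 0.29, Drd2 by 0.27 and the signalling inhibitor Ppp1r1b by 0.17. The mean deviation of the 5 tested markers of septum, pallidum and basal forebrain was 0.47 and 0.53 in water animals 17 and 20 and 0.13 in animal 19, against -0.16 to 0.14 in ethanol animals and -0.31 to 0.13 in the 7 other water animals. Animals 17 and 20 were thus above all others for this list, and animal 19 was within the range of the rest. In that list the differences, ethanol minus water, were -0.32 for Trpc4, -0.17 for Nkx2-1, -0.01 for Dlk1, 0.009 for Slc5a7 and 0.08 for Chat. Without the 3 animals they were 0.07, 0.02, 0.12, 0.0059 and 0.09, in the same order. Chat and Slc5a7 are the cholinergic markers of the list, and the septal marker Zic1 was dim. The part of cell or tissue makeup in the myelin gene differences was not tested.

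**Figure D5:**
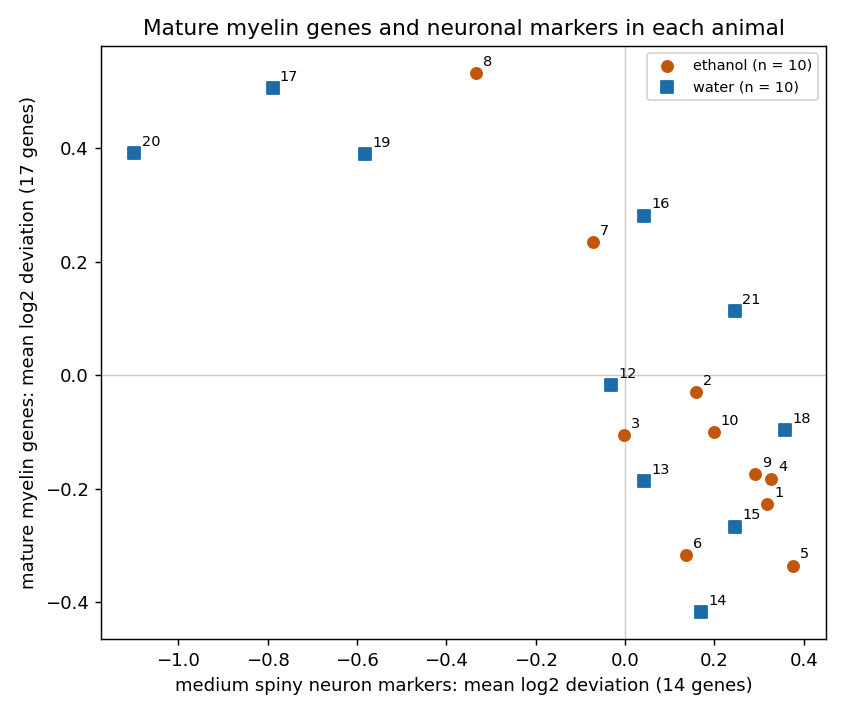
Mean log2 deviation of the 17 mature myelin genes against that of the 14 medium spiny neuron markers, 1 point per animal. Water animals 17, 19 and 20 and ethanol animal 8 combine high myelin values (0.39 to 0.53) with the lowest neuronal values (-0.33 and below).

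RNA quality also differed between arrays. The difference between 3' and 5' probe sets of the actin, Gapdh and hexokinase controls averaged 1.16 ± 0.11 (SD, n = 10) in ethanol and 1.29 ± 0.15 (SD, n = 10) in water. With that value as a covariate the median difference of the 27 genes was -0.23, with 27 of 27 lower and 0 past the threshold. In accession order the animals form 3 successive runs of ethanol then water arrays; the labels name no batch. In the first (4 against 4 animals) 6 of the 27 genes were lower in ethanol, with a median difference of 0.07. In the second (4 against 4, with water animals 17 and 19) and in the last (2 against 2, with animal 20), 27 of 27 were lower, with medians of -0.26 and -0.40. The lower values in ethanol therefore did not hold within the first run.

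Other genes of the lineage also had mostly lower means in ethanol with all animals, and none passed. Among all genes tested, 49.9% were lower and 0.0931% passed. Of 42 further oligodendrocyte and myelin genes 31 were tested. Of these 0 rose and 0 fell, and 27 had a lower mean in ethanol (median difference -0.11). Without the 3 animals 8 were lower and 23 higher (median difference 0.04), where 44.5% of all genes were lower. The members of smallest p were Adamts4, an aggrecanase of mature oligodendrocytes (-0.26, adjusted p = 0.397), the proteolipid Pllp (-0.22, adjusted p = 0.496), Tcf7l2, a Wnt pathway factor of differentiation (-0.27, adjusted p = 0.538), and Evi2a (-0.19, adjusted p = 0.592). Of 14 further precursor genes 8 were tested, 0 rose and 0 fell, and 6 had a lower mean in ethanol (median difference -0.12, and -0.02 without the 3 animals). Those of smallest p were the matrix protein Tnr (-0.15, adjusted p = 0.433), the proteoglycan Vcan (-0.12, adjusted p = 0.469), the SRY-box factor Sox6 (-0.16, adjusted p = 0.475) and the sulfatase Sulf2 (-0.19, adjusted p = 0.5).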

How the data were processed

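RNA of 20 animals was measured on 1-colour Affymetrix arrays, 1 array per animal, after labelling from the 3' end per the labels' protocols. The authors deposited log2 values made with RMA, per the submitters' processing notes. The sources used here give neither its software and version nor the chip definition. Animal number 11 was not analysed here. With RMA, differences between dim probe sets come out too small, and a shift common to most genes is removed.

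Of 31099 probe sets, 57 are controls, and GEO's platform annotation names 1 gene for 20826, more than 1 for 436 and none for 9780. Controls and the 33.3% of probe sets with the lowest means (below 6.65) were left out, leaving 20695 probe sets. Groups were compared with limma 3.58.1 in R 4.3.3 (lmFit, eBayes, two-sided, no covariates, Benjamini-Hochberg over all probe sets, threshold 0.05). The fit was tested on simulated arrays, with each probe set drawn independently and with the same SD in both groups. Covariation of genes and unequal spread of the groups were not simulated. Correlations used permutation tests with 100000 resamples, two-sided, in numpy 2.4.6. A gene was read from its probe set of highest mean. The number of arrays limits the precision.

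The genes, gene lists, and the arrays left out were chosen with earlier results of these data known. Within each role the 4 genes of smallest p are given in full and the others by their difference; of the further gene lists, the 4 of smallest p are named. Markers are named as the first of their list, with exceptions. Rgs9 comes from the fixed pairs, and Tbr1, Nptx1, Neurod2, Fezf2, Chat, Slc5a7, Trpc4 and Dlk1 were named after their values were seen. Alternatives changed the filter, normalization, variance model, weights, covariates, probe set choice and arrays used. Protein sequences were not used here.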

Additional observations from a re-analysis of the deposited data

How the results depend on the processing

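No gene of the 27 passed the threshold under any alternative run (24 of them were tested with the filter at the median), nor did any of the 39 further lineage genes. Leaving out 1 animal at a time moved the median difference between -0.22 (without ethanol animal 8) and -0.10 (without water animal 17), and precursor minus mature between -0.05 and 0.04; 26 or 27 genes stayed lower in ethanol, the exception being Gjb1 without water replicate 20 (0.0051).

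Other signs turned as follows, with adjusted p-values from 0.713 to 0.999. Without water animals 17, 19 and 20 the differences were 0.027 for Mbp, 0.056 for Nkx2-2, 0.027 for Opalin, 0.051 for Ugt8, 0.0018 for Fa2h, 0.070 for Gjb1, 0.088 for Aspa, 0.0069 for Mal, 0.046 for Tspan2, 0.051 for Enpp2, 0.0097 for Bcas1, 0.031 for Plekhb1 and 0.00022 for Pdgfra. In that setting r in water was -0.11 for Pdgfra and Cspg4 and -0.22 for Mag and Pdgfra, and the SD was larger in water for 8 genes in place of 24. Without water animals 12, 13, 17, 19 and 20 they were 0.078 for Nkx2-2, 0.10 for Gjb1, 0.063 for Aspa, 0.055 for Tspan2, 0.066 for Enpp2, 0.0042 for Gpr37, 0.069 for Plekhb1 and 0.045 for Pdgfra. Without the outlying arrays (water animals 12, 17 and 20) they were 0.033 for Nkx2-2, 0.061 for Gjb1, 0.023 for Aspa and 0.021 for Plekhb1, with a median of -0.07 over the 27 genes. With array weights they were 0.031 for Gjb1 and 0.0051 for Plekhb1, with a median of -0.10. Precursor minus mature was 0.11 with the covariate for RNA quality and 0.024 without water animals 12 and 13. With the probe set of largest SD Mbp differed by 0.11. The cause of these changes was not tested. Over all genes tested, 10 passed in the reported setting, 2 with the covariate for RNA quality, 5 without the outlying arrays, 6 with the filter at the median, 16 with array weights and 18 without the 5 water animals.

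Leaving Gpr17 out of the precursor genes and its pair with Mog were not run, since no probe set was matched to it. No paired analysis was possible because the animals of the groups share no numbers. Labels do not say whether animals shared a litter or cage. The p-values take the animals as independent, which could not be checked.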

Other observations

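No astrocyte, microglial or endothelial marker passed the test (limma, Benjamini-Hochberg). At an unadjusted p under 0.05, 0 of 10 astrocyte markers, 2 of 10 microglial markers, both lower in ethanol (differences of -0.14 for Aif1 and -0.15 for Tmem119), and 2 of 6 endothelial markers, both higher (0.20 for Tie1 and 0.18 for Egfl7), were counted, where 1076 of all 10746 genes were in either direction (4.77% lower and 5.24% higher). These 4 markers are named for that count, after their values were seen. Of 10 astrocyte markers 7 had a lower mean in ethanol, with a median difference of -0.04, and -0.02 without water animals 17, 19 and 20. Gfap, the intermediate filament of astrocytes, differed by -0.36 (adjusted p = 0.458), and by -0.13 without these 3 animals, the water channel Aqp4 by -0.03 and the glutamate transporter Slc1a2 by 0.09. Of 10 microglial markers 8 had a lower mean in ethanol, with a median of -0.10, and -0.04 without the 3 animals, among them the fractalkine receptor Cx3cr1 (-0.08), the purinergic receptor P2ry12 (-0.12) and the growth factor receptor Csf1r (-0.12). Of 6 tested endothelial markers 5 had a higher mean in ethanol, with a median of 0.11, and 0.13 without the 3 animals, such as Cldn5, a tight junction protein (0.06), and Tek, the angiopoietin receptor (0.10), while Pecam1 differed by -0.02. The Schwann cell markers with a tested probe set, Pmp22 and Prx, differed by -0.02 and 0.09, and by 0.12 and 0.10 without the 3 animals.

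Hapln2, a link protein of the matrix at nodes of Ranvier, is named after its values were seen. Its SD was 0.66 in water and 0.28 in ethanol, and its difference was 0.03 with all animals and 0.36 without water animals 17, 19 and 20 (adjusted p = 0.427).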
